A study of Zea mays with 6 samples.

Results

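The genes described here were the 100 with the lowest polysome to mRNA ratio among moderately expressed genes of the maize F1 hybrid B73×Mo17. Candidates were the genes with a *Zm00001d* identifier whose FPKM (fragments per kilobase, scaled to the total of the library) lay between 10 and 50 in both mRNA libraries, which left 4424 of 43789 such genes and of 45578 listed entries. For each candidate the polysome FPKM was divided by the mRNA FPKM of the same replicate number, the genes were ranked by the higher of both ratios, and the lowest 100 were kept. The members were therefore chosen by the ratio, and it is given only as a description, with no test.

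The libraries came from aerial tissue of 14-day-old seedlings of this hybrid, a cross of the inbred lines B73 and Mo17. Libraries of either parent were not used here. The 6 libraries comprised 2 biological replicates of each of 3 kinds, namely mRNA, polysome RNA and RNA immunoprecipitated with an antibody against N6-methyladenosine (m6A). The mRNA libraries held fragmented polyadenylated RNA and also served as the input control of the immunoprecipitation, whereas the polysome libraries held RNA recovered from the polysome fractions of sucrose gradients, for which no selection of polyadenylated RNA was named. In all groups whole aerial seedlings were pooled over cell types, so fewer cells of a type and less RNA per cell cannot be told apart, and leaf marker genes were not checked since the identifiers were not paired with gene names in the table used here.

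A messenger RNA under active translation carries several ribosomes at once and sediments as a polysome, and the share of a transcript found there, relative to its abundance, is commonly called translational efficiency. Transfer RNAs and other short structured RNAs are not themselves translated. m6A is the most common internal base modification of plant mRNA, is deposited mainly near stop codons and in 3′ untranslated regions, and is read by proteins that act on the stability, processing and translation of the transcript.

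The summed FPKM of a library was 1120150 and 1104060 for mRNA and 981255 and 947111 for polysome RNA, and 17938 to 19991 entries reached an FPKM of 1. FPKM are relative to the other RNAs of a library and hold no counts, so the depth behind each value is unknown. In the immunoprecipitation 17371 and 30378 peaks were listed in replicates 1 and 2, and 17022 peaks of replicate 1 overlapped a peak of replicate 2.

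Among the members the higher ratio ran from 0.00324 to 0.259, with a median of 0.182 and quartiles of 0.0587 and 0.234. Over all 4424 candidates the median was 1.18 and the quartiles were 0.660 and 2.17. The median ratio of the members was 0.154 in replicate 1 and 0.152 in replicate 2. Both polysome values lay below both mRNA values in 100 of 100 members, beside 40.9% of all candidates, a count that follows largely from the rule. The mRNA abundance of the members had the same range as that of the candidates by construction, with medians of 17.1 and 19.3 FPKM in replicates 1 and 2, while their median polysome abundance was 2.50 and 2.48 FPKM. Summed over the members, 1973 and 2241 FPKM of mRNA stood against 279 and 293 FPKM of polysome RNA. The kinds of library also differed in how the RNA was prepared, and its part in the ratios cannot be told apart from ribosome loading.

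The limit of the list fell within a continuous run of values. Just inside it lay *Zm00001d010814* (0.2559), *Zm00001d022666* (0.2575) and *Zm00001d028474* (0.2593). Just outside it lay *Zm00001d053308* (0.2598), *Zm00001d034489* (0.2611) and *Zm00001d013493* (0.2611).

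**Figure D1:**
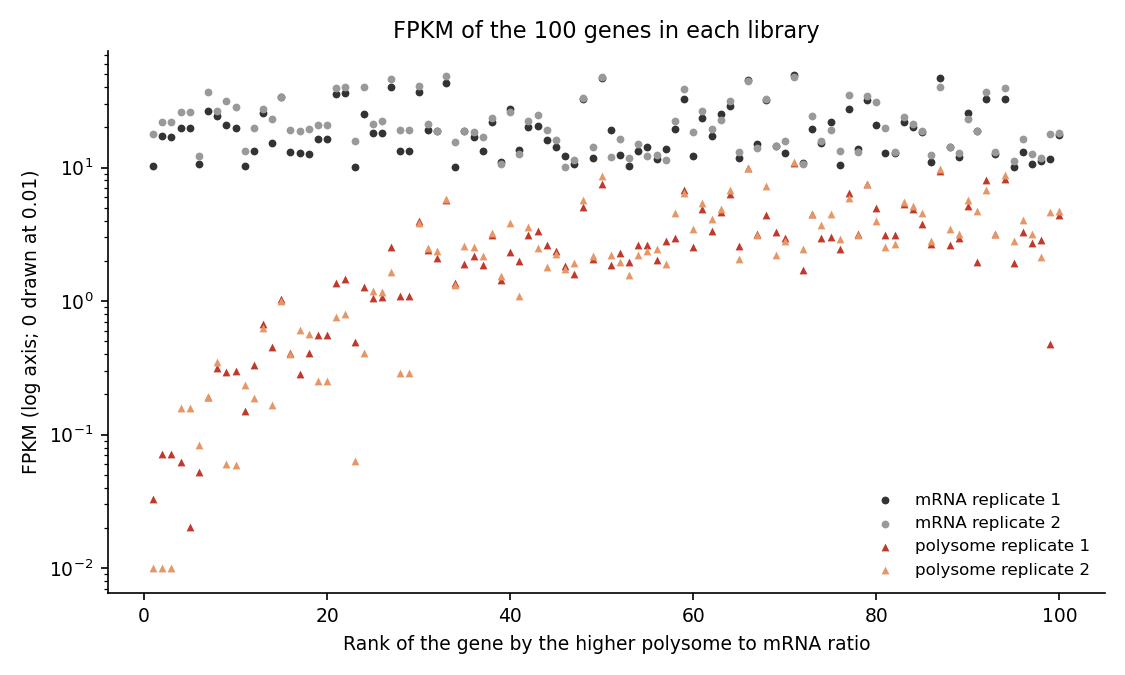
FPKM of the 100 genes in each of the 4 libraries (log axis, values of 0 drawn at the bottom), ordered by rank of the higher polysome to mRNA ratio. The mRNA values all lie between 10 and 50, whereas the polysome values of the first ranks are mostly below 1 FPKM and those of the later ranks mostly between 1 and 10.

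To see how far a low ratio in one replicate carried over to the other, which the choice of genes by a single replicate leaves unused, the 100 lowest genes were chosen in each replicate alone and read in the other. The 100 chosen in replicate 1, from 4758 genes of the FPKM range in that replicate, had a median ratio of 0.137 there and 0.148 in replicate 2. Of these, 68 were also among the lowest 100 of the same 4758 genes by the ratio of replicate 2 and 97 lay below the replicate 2 median of 1.13. The 100 chosen in replicate 2, from 4956 genes, had a median of 0.111 there and 0.138 in replicate 1, where 71 were again among the lowest 100 of the same 4956 genes and 97 lay below the median of that replicate. Both lists of 100, each within its own FPKM range, shared 58 genes. In each direction the other replicate gave a median close to that of the choosing replicate, although single genes chosen in replicate 1 reached 1.86 in replicate 2, and single genes chosen in replicate 2 reached 8.09 in replicate 1.

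Gene span, the distance from annotated start to end including introns, divided the members into separate classes. Of the 100 members, 30 spanned 71 to 87 bp, whereas 0.791% of the candidates (35 genes) were of at most 100 bp. The shortest of the other 70 members spanned 417 bp, and no member lay between. The candidates also had a gap in span, with none between 87 and 171 bp. The short members held 29 of the first 30 ranks, the exception being *Zm00001d051325* with 549 bp at rank 15. Both ratios were below 0.1 in 28 of the 30 short members and in 29 of all members. By the rule these 29 were also all such genes among the candidates (0.656%). The division at 100 bp was chosen after the values were seen.

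**Figure D2:**
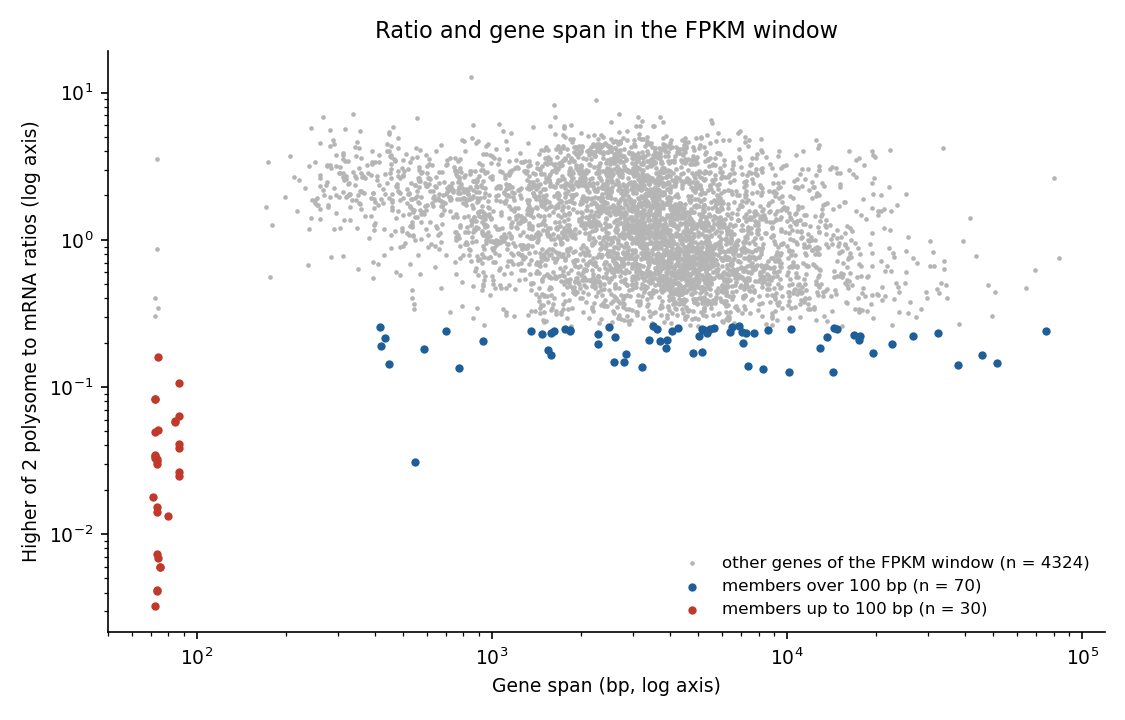
Higher of both polysome to mRNA ratios against gene span for the 4424 genes with 10 to 50 FPKM in both mRNA libraries (both axes logarithmic). The 30 members of at most 100 bp form a separate cloud with a median ratio of 0.0319, and the 70 longer members form the lower edge of the main cloud with a median of 0.221.

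The short members had median mRNA abundances of 17.7 and 22.1 FPKM in replicates 1 and 2, median polysome abundances of 0.432 and 0.271 FPKM, and a median higher ratio of 0.0319. Their spans clustered at a few lengths, with 7 genes of 72 bp, 8 of 73 bp, 3 of 74 bp, 2 of 75 bp and 6 of 87 bp, and the remainder at 71, 80 or 84 bp. No source used here assigns these identifiers a product, so none is named. A feature of this span is shorter than a sequencing read of these libraries, and reads of near-identical copies can be split among them, so the single values are uncertain.

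The 10 members with the lowest ratios were all of this short class. In *Zm00001d041966* (chromosome 3, 145925161 to 145925232, plus strand, coordinates of B73 RefGen_v4 throughout) the mRNA abundance was 10.3 and 17.7 FPKM, and the polysome abundance was 0.0332 FPKM and listed at 0. *Zm00001d018351* (chromosome 5, 219057976 to 219058048, minus strand) had 17.3 and 22.0 FPKM in mRNA and 0.0710 FPKM and a listed 0 in polysome RNA. *Zm00001d018379* (chromosome 5, 219582681 to 219582753, minus strand) had 17.0 and 22.0 FPKM in mRNA and likewise 0.0710 FPKM and a listed 0 in polysome RNA. These 3 were the members listed at 0 in a polysome library, each in replicate 2, beside 0.113% of the candidates, and no fold is given against a listed 0.

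*Zm00001d044885* (chromosome 9, 6532736 to 6532810) had 19.7 and 26.3 FPKM in mRNA and 0.0628 and 0.157 FPKM in polysome RNA. *Zm00001d040943* (chromosome 3, 81488677 to 81488751) had 19.7 and 26.2 FPKM in mRNA and 0.0202 and 0.157 FPKM in polysome RNA. In both genes the ratio was higher in replicate 2, which was less common in the short class. *Zm00001d041936* (chromosome 3, 144379628 to 144379701) followed with 10.7 and 12.1 FPKM against 0.0526 and 0.0832 FPKM, again with the polysome values far under the mRNA values in both replicates.

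*Zm00001d013916* (chromosome 5, 24686332 to 24686404) had the highest mRNA abundance of the 10, with 26.3 and 36.7 FPKM, and 0.192 and 0.191 FPKM in polysome RNA. *Zm00001d012678* (chromosome 8, 178461024 to 178461103) had 24.1 and 26.7 FPKM in mRNA and 0.317 and 0.351 FPKM in polysome RNA, and its ratio was 0.0132 in each replicate. Between the replicates the ratios of these genes therefore ranged from nearly equal to several-fold apart.

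*Zm00001d046845* (chromosome 9, 108264425 to 108264497) had 20.8 and 31.3 FPKM in mRNA and 0.293 and 0.0601 FPKM in polysome RNA. *Zm00001d046847* (chromosome 9, 108267188 to 108267260) had 19.7 and 28.2 FPKM in mRNA and 0.302 and 0.0589 FPKM in polysome RNA. Both lay on the minus strand with 73 bp each and 2690 bp between them, had similar values in all 4 libraries, and were the only members within 100000 bp of each other. The shortest member, *Zm00001d005956* (71 bp, chromosome 2, 193772068 to 193772138), took rank 11 with 10.3 and 13.3 FPKM in mRNA and 0.149 and 0.237 FPKM in polysome RNA. The upper end of the short class was *Zm00001d046081* (74 bp), with 20.3 and 22.5 FPKM in mRNA, 3.12 and 3.57 FPKM in polysome RNA and rank 42. This gene and *Zm00001d042521*, with ratios of 0.107 and 0.0939, were the 2 short members without both ratios below 0.1, and both were named after their values were seen.

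The replicates differed in a common direction within the short class. The mRNA abundance was higher in replicate 2 in 30 of 30 short members, with a median quotient of 1.31, beside 59.8% of all candidates with a median quotient of 1.03. The polysome abundance was higher in replicate 2 in 10 of 30, beside 68.9% of the candidates, and the ratio was higher in replicate 1 in 24 of 30, beside 38.3%. The median distance between both ratios was 0.92 on the log2 scale over the 27 short members with no listed 0, and 0.24 over the 70 longer members, beside 0.21 over the candidates. The mRNA and polysome values also set the ratio that chose the members, so these counts are given only as a description. The part of library preparation in this shift between replicates was not tested.

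Some short members carried exactly equal values. *Zm00001d015350* on chromosome 5 and *Zm00001d026443* on chromosome 10, both of 72 bp, were each listed with 13.3 and 19.2 FPKM in mRNA and 1.10 and 0.290 FPKM in polysome RNA, equal in all 4 libraries. *Zm00001d018351* and *Zm00001d018379* were equal in 3 libraries, the listed 0 included. In total 8 short members shared a value above 0 with another in at least 1 library, but only 1 pair was equal in all 4. They may therefore not all be separate measurements, also in the counts given above.

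Some of the short members also shared their positions with entries of another type. ENSRNA entries, which stand for annotated non-coding RNA, overlapped 13 members by at least 1 bp, beside 1.15% of the candidates. Split by span, the share among short genes was 12 of 30 members (40%). The 35 candidates of at most 100 bp, 13 of them (37.1%) with an overlap, include these 30 members. They therefore give no separate background for the short members. Among longer genes the share was 1 of 70 members (1.43%), beside 0.866% of the candidates over 100 bp. In 12 of the 13 members with an overlap, all of them short, the ENSRNA entry had the same start, end and strand as the gene. Among them were *Zm00001d018351*, *Zm00001d018379*, *Zm00001d013916*, *Zm00001d046845* and *Zm00001d046847*. Of the 14 ENSRNA entries, 9 were listed at 0 in all 4 libraries and the other 5 stayed at or below 0.0389 FPKM. For one and the same stretch, the gene was thus listed with 10 to 50 FPKM of mRNA and its ENSRNA entry with almost none.

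Across the series 535 *Zm00001d* genes had the same span as an ENSRNA entry. In 270 of these pairs the ENSRNA entry alone was listed at 0 in all 4 libraries, in 14 the gene alone, in 217 both and in 34 neither. How reads of such a stretch are assigned to either entry is set by the counting step, and its part in the values of the short members was not tested. The 13th member was *Zm00001d051325* (chromosome 4, 154378507 to 154379055, minus strand), which held 2 ENSRNA entries of 98 and 107 bp on the opposite strand, both listed at 0. Its mRNA abundance of 33.7 and 33.5 FPKM stood against 1.04 and 0.997 FPKM in polysome RNA, and its ratios of 0.0307 and 0.0298 were the lowest of the longer members.

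Low ratios were frequent in short genes outside the FPKM range as well, which the rule did not use. Among *Zm00001d* genes of at most 100 bp with 1 to under 10 FPKM in both mRNA libraries (94 genes) the median higher ratio was 0.106, and among those above 50 FPKM (41 genes) it was 0.0223. For genes over 100 bp the medians were 0.903 and 1.75. ENSRNA entries of at most 100 bp had medians of 0.0890, 0.0639 and 0.0415 at 1 to under 10, 10 to 50 and above 50 FPKM. In the polysome libraries all 2249 short genes together took 0.124 and 0.116% of the summed FPKM, and in the mRNA libraries 1.31 and 1.67%.

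The remaining 70 members spanned 417 to 75151 bp, with a median of 4914.5 bp beside 3342 bp for candidates over 100 bp. Their median mRNA abundance was 16.5 and 18.5 FPKM, their median polysome abundance 2.96 and 3.16 FPKM, and their median higher ratio 0.221. Long genes made up a larger share of them than of the candidates, with 18 of 70 (25.7%) over 10000 bp beside 8.43%, and 5 of 70 over 30000 bp beside 0.638%. Of the candidates, members were 1.62% at 100 to 1000 bp, 1.16% at 1000 to 3000 bp, 27 of 2082 at 3000 to 10000 bp, 3.80% at 10000 to 30000 bp and 17.9% (5 of 28) above 30000 bp. The median ratio of the candidates fell along the same classes, from 1.93 to 1.38, 0.992, 0.811 and 0.501.

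The 3 longest members held 11 or more shared m6A peaks each, as described further on. *Zm00001d030266* (75151 bp, chromosome 1, 117619933 to 117695083, plus strand) had 12.9 and 19.6 FPKM in mRNA and 3.10 and 2.55 FPKM in polysome RNA. *Zm00001d037401* (51275 bp, chromosome 6, 124532947 to 124584221, minus strand) had 11.0 and 10.6 FPKM in mRNA and 1.45 and 1.54 FPKM in polysome RNA. *Zm00001d023792* (45806 bp, chromosome 10, 20844614 to 20890419, plus strand) had 20.3 and 24.6 FPKM in mRNA and 3.34 and 2.49 FPKM in polysome RNA. The mRNA replicates of *Zm00001d030266* lay furthest apart among these 3 genes, and those of *Zm00001d037401* closest together.

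A peak shared by both replicates, that is a replicate 1 peak that overlapped a replicate 2 peak and the gene by at least 1 bp, was found in 29 of 100 members, beside 58.6% of the candidates. All 29 were longer members, 29 of 70, beside 59.1% of candidates over 100 bp. Replicate 1 alone gave a peak in 29 members (59.1% of the candidates) and replicate 2 alone in 35 (64.4%). Of the 30 short members 0 held a peak in either replicate, and so did 0 of the other 5 short candidates. Peak calling compares the immunoprecipitated RNA with the same mRNA libraries that set the FPKM range, and not with the polysome libraries. Those mRNA values were also the denominator of the ratio that chose the members. Peak calls and ratios are therefore not independent, and the part of this shared input in the counts was not tested.

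At matched span, the counts of members and of other candidates with a shared peak lay furthest apart between 1000 and 10000 bp. At 1000 to 3000 bp 0 of 16 members held one, beside 41.0% of the others. At 3000 to 10000 bp it was 11 of 27 members (40.7%) and 80.0% of the others. In the remaining classes the members lay near the others, with 0 of 9 beside 5.66% at 100 to 1000 bp, 13 of 13 beside 93.6% at 10000 to 30000 bp and 5 of 5 beside 91.3% above. These counts were not tested.

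**Figure D3:**
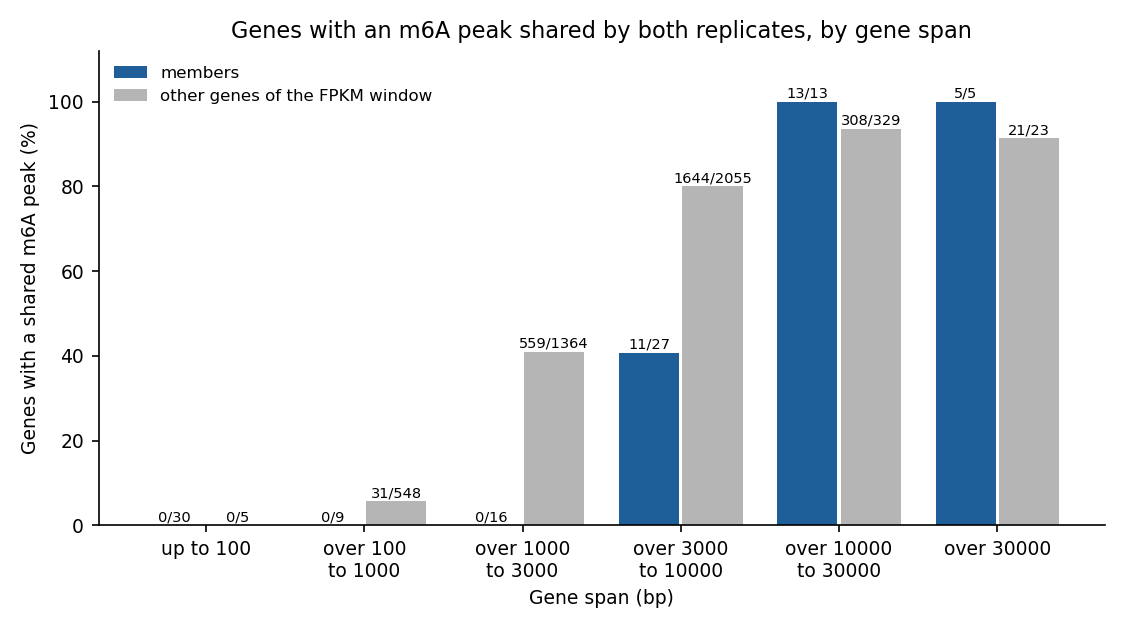
Percentage of genes with an m6A peak shared by both replicates in 6 classes of gene span, for members and for the other candidates, with the number of genes above each bar. Members of 100 to 3000 bp held none (0 of 25), those of 3000 to 10000 bp 40.7%, and those above 10000 bp held a peak in 18 of 18.

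The m6A level of a gene is the highest fold enrichment among its shared peaks, taken in each replicate separately and averaged over both. In genes with several peaks both values can come from different peaks, so their SD need not be the spread of a single peak. In the 29 members with a shared peak, the m6A level had a median of 5.44, beside 4.73 over 2592 candidates with a peak. The ranges overlapped, from 1.74 to 16.2 in members and from 1.74 to 27.6 in the candidates. The 5 highest members were *Zm00001d045635* with 16.2 ± 0.0539 (SD, n = 2), *Zm00001d023792* with 14.1 ± 3.86, *Zm00001d037401* with 13.5 ± 1.84, *Zm00001d030266* with 11.8 ± 1.74 and *Zm00001d018423* with 9.37 ± 2.12. These 5 were also the 5 members with the most shared peaks. The level takes the highest of the shared peaks of a gene, so more peaks give more values to choose from. This match is therefore partly built in, and the medians above share the limit. The upper quartile of shared peaks per gene with a peak was 2 in members and 1 in candidates.

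Of the members, 6 held 3 or more shared peaks, beside 2.31% of the candidates. At matched span the shares lay closer, with 2 of 13 members (15.4%) beside 18.8% of the others at 10000 to 30000 bp, and 4 of 5 members beside 60.9% of the others above 30000 bp. The fifth above 30000 bp, *Zm00001d037333* with 32529 bp, held 1. *Zm00001d037401* held 19 shared peaks, the third highest number among the candidates, from 19 peaks in replicate 1 and 33 in replicate 2. *Zm00001d023792* and *Zm00001d030266* held 11 each, *Zm00001d045635* held 7, *Zm00001d018423* held 5 and *Zm00001d031847* held 3. Per 10000 bp of span this came to 3.71 in *Zm00001d037401*, 2.61 in *Zm00001d045635*, 2.40 in *Zm00001d023792*, 1.78 in *Zm00001d031847*, 1.46 in *Zm00001d030266* and 1.32 in *Zm00001d018423*, so that the most peaks did not simply go with the longest gene.

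*Zm00001d045635* (26786 bp, chromosome 9, 30190972 to 30217757, plus strand) had 15.0 and 14.0 FPKM in mRNA and 3.19 and 3.11 FPKM in polysome RNA. *Zm00001d018423* (37997 bp, chromosome 5, 220485106 to 220523102, minus strand) had 13.2 and 16.9 FPKM in mRNA and 1.87 and 2.16 FPKM in polysome RNA. *Zm00001d031847* (16860 bp, chromosome 1, 203973238 to 203990097, plus strand) had 32.3 FPKM in both mRNA replicates and 4.40 and 7.33 FPKM in polysome RNA. The ratios of this last gene, 0.136 and 0.227, differed more between replicates than those of the other 2 did.

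The position of the peaks differed within the members. In the 23 members with 1 or 2 shared peaks, 22 of 25 summits (88.0%) lay in the last 10% of the gene, and the median summit was 232 bp from the annotated 3′ end. In the 6 members with 3 or more, 6 of 56 summits (10.7%) lay there, and the median summit was 14258.5 bp from the 3′ end. Over the other candidates 82.3% of summits lay in the last 10% in genes with 1 or 2 peaks, and 19.7% in the 96 genes with 3 or more. All members together had 28 of 81 summits (34.6%) there, beside 72.2% over all other candidates. The peaks within a gene share their transcript and input and are not independent of each other.

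Summits of *Zm00001d037401* lay between 5.54 and 82.3% of the span, with none in the last 10%. In the other 5 genes with 3 or more peaks at least 1 summit lay beyond 98% of the span, and the others were spread from 14.2% onward in *Zm00001d030266*, 15.5% in *Zm00001d023792*, 15.6% in *Zm00001d031847*, 36.2% in *Zm00001d018423* and 46.7% in *Zm00001d045635*. The summit of highest fold enrichment lay in the last 10% of the span in 2 of the 6 genes, *Zm00001d018423* (7.87) and *Zm00001d031847* (8.96), and elsewhere in the other 4. In *Zm00001d045635* the summit at 59.4% had 16.2 and those at 98.7 and 99.7% had 9.90 and 7.28. Whether these summits lay in exons or introns was not examined, since the exon annotation of this build was not used here.

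**Figure D4:**
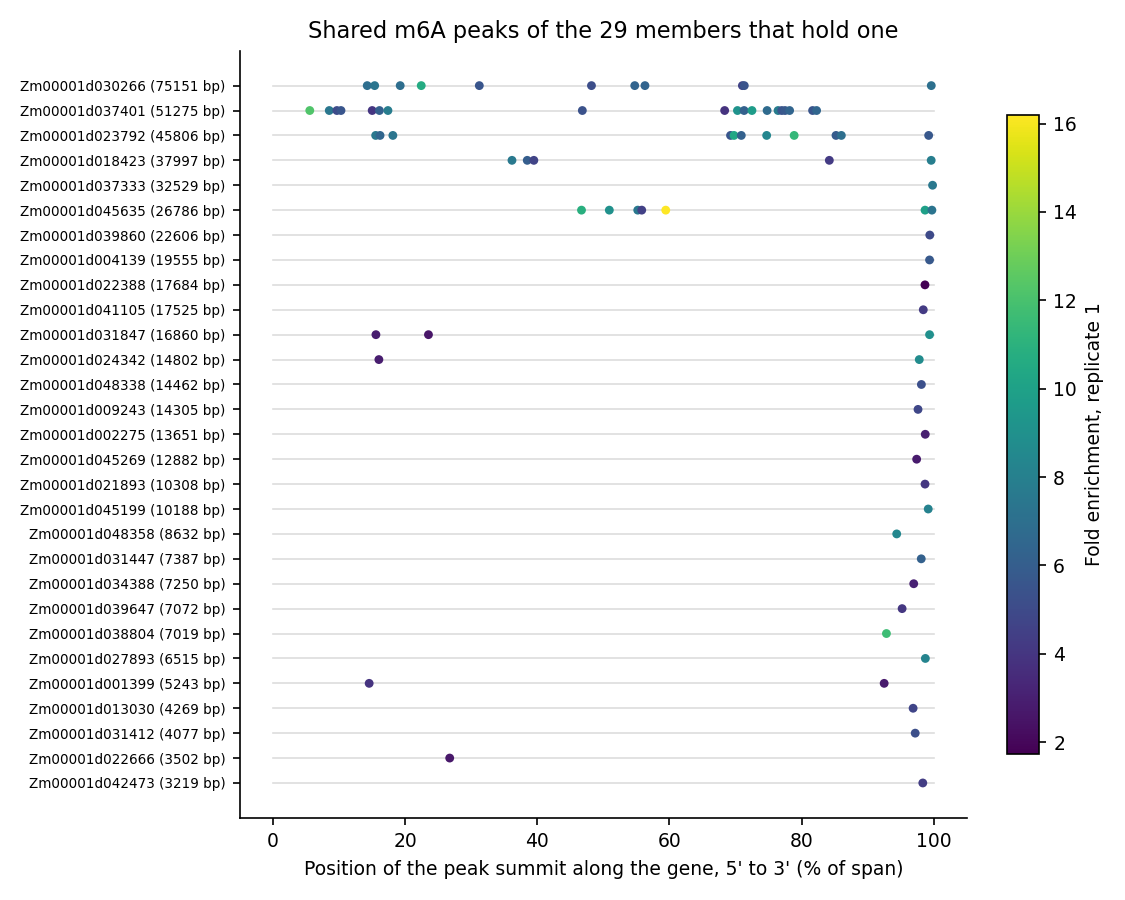
Position of each shared m6A peak summit along the gene, in percent of the span from 5′ to 3′, for the 29 members with a shared peak (1 line of points per gene), coloured by fold enrichment in replicate 1. The summits of the 23 genes with 1 or 2 peaks sit mostly at the 3′ end, with 22 of 25 in the last 10%, and those of the 6 genes with 3 or more peaks are spread along the gene body, with 6 of 56 there.

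Overlap with another *Zm00001d* gene was found in 8 members, beside 7.23% of the candidates, so this share lay near the background. On the same strand there were 2. *Zm00001d022666* (chromosome 1, 8204351 to 8207852, plus strand) shared 2308 bp with *Zm00001d022665*. *Zm00001d022666* had 11.6 and 17.9 FPKM in mRNA and 0.474 and 4.60 FPKM in polysome RNA, while *Zm00001d022665* had 4.47 and 0.0127 FPKM in mRNA and 9.58 and 3.37 FPKM in polysome RNA. The ratios of *Zm00001d022666*, 0.0409 and 0.258, were the most distant between replicates among the longer members, and the abundances of both genes of this pair are uncertain.

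*Zm00001d001399* (chromosome 6, 94601194 to 94606436, plus strand) contained the 465 bp of *Zm00001d036615* on the same strand. *Zm00001d001399* had 20.2 and 21.0 FPKM in mRNA and 4.88 and 5.11 FPKM in polysome RNA, and *Zm00001d036615* had 10.5 and 9.50 FPKM and 7.21 and 6.56 FPKM. The other overlaps were on the opposite strand, by 1375 bp of *Zm00001d008179* in *Zm00001d008178* and by 518 bp of *Zm00001d023793* in *Zm00001d023792*, both of these partners with at most 0.115 FPKM in any library. The use of strand in the counting was not given in the sources used here, so reads of such partners cannot be told apart. Finally, 4 longer members contained 7 genes of at most 100 bp on the opposite strand, of which 6 were listed at 0 in all 4 libraries. The short member *Zm00001d031497* shared 11 bp with *Zm00001d031496*, a gene with 40.9 and 35.5 FPKM in mRNA and 73.4 and 74.3 FPKM in polysome RNA. An overlap with a microRNA precursor entry was found in 0 members and 0 candidates.

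The members lay on all 10 chromosomes. Chromosome 1 held 24, beside 16.9% of the candidates, and chromosomes 3 and 9 held 12 each, chromosome 5 held 11, chromosome 8 held 9, chromosomes 2 and 6 held 7 each, and chromosomes 4, 7 and 10 held 6 each. As a share of the candidates of a chromosome this ran from 1.40% on chromosome 2 to 3.64% on chromosome 9. The median distance to the nearer end of the annotated part of the chromosome was 19.1% of its length, beside 15.5% for the candidates, and the median distance to the nearest gene was 3361.5 bp beside 3173 bp. The 76 candidates within 100000 bp of a member that were not members had a median ratio of 1.14, beside 1.21 for the rest of the candidates, a difference of medians that was not tested.

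Among neighbours of members that were not members themselves, 3 came closest to the limit. *Zm00001d034488* (chromosome 1, 294314704 to 294316542, rank 86) had 11.0 and 12.4 FPKM in mRNA and 2.68 and 2.81 FPKM in polysome RNA. *Zm00001d034489*, 5252 bp further along the same strand at rank 102, had 12.2 and 15.0 FPKM in mRNA and 3.19 and 3.09 FPKM in polysome RNA. The next were *Zm00001d045138* at rank 120 with a higher ratio of 0.282, which lay beside *Zm00001d045139*, and *Zm00001d048342* at rank 127 with 0.285. These genes were singled out after their values were seen.

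Dividing the candidates into 10 groups of near-equal size by the ratio placed the members, all in the lowest group of 443 genes, beside the rest. The median span was 4288 to 4295 bp in the 3 lowest groups, 2362 bp in group 8 and 2608 bp in the highest. Genes over 10000 bp made up 17.2% of the lowest and 2.94% of the highest group. A shared peak was found in 44.5% of the lowest group, in 54.1 to 60.9% of the groups between, and in 76.9% of the highest. The lowest group held 33 genes of at most 100 bp, a class in which 0 of 35 candidates held a peak. The 100 genes with the highest ratios, ranked by the lower of both and all at 3.91 or above, had a median span of 2702.5 bp. Of these, 88 held a shared peak, beside 29 of the 100 members, or 29 of the 70 members over 100 bp. The median mRNA abundance of the 100 highest was 22.6 and 22.2 FPKM in replicates 1 and 2, beside 17.1 and 19.3 FPKM in the members. Of the 100 highest, 0 held 3 or more peaks and 0 were of at most 100 bp, beside 6 and 30 of the members.

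**Figure D5:**
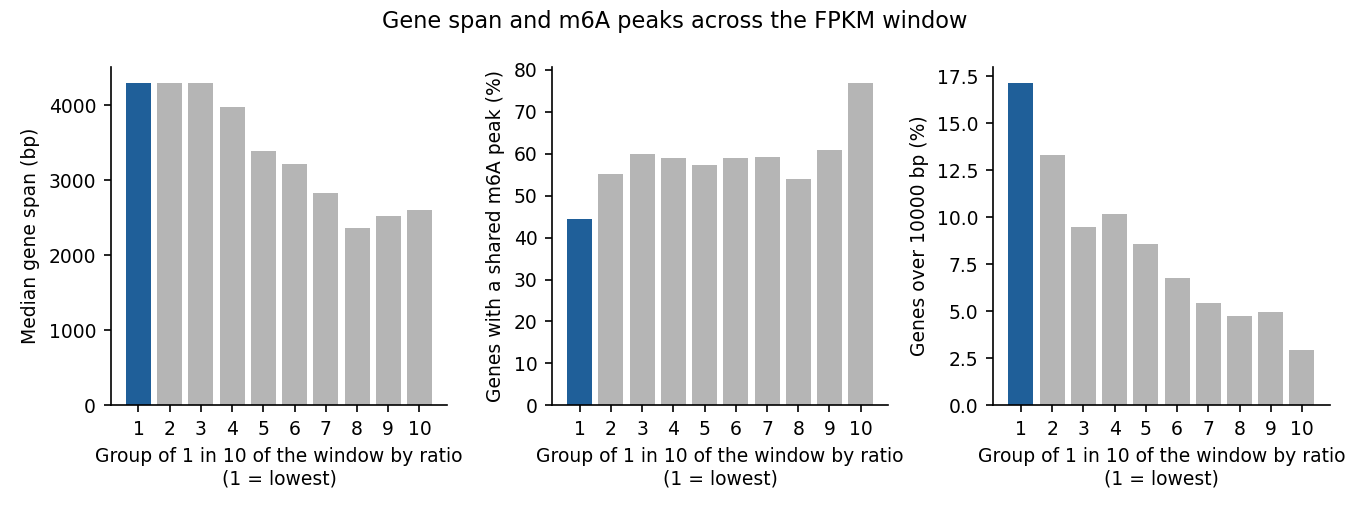
Median gene span (bp), percentage of genes with a shared m6A peak and percentage of genes over 10000 bp in 10 groups of near-equal size of the 4424 candidates, from the lowest polysome to mRNA ratio (1, in blue, which contains the 100 members) to the highest. Groups 1 and 10 have a median span of 4288 and 2608 bp, and 17.2 and 2.94% of their genes are over 10000 bp. A peak is held by 44.5 and 76.9% of them, and by 54.1 to 60.9% in the groups between. Group 1 includes 33 genes of at most 100 bp.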

How the data were processed

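Reads of the 6 libraries were trimmed by the authors with Trimmomatic (0.35) and mapped to B73 RefGen_v4 with HISAT2 (2.1.0). FPKM per gene were estimated by the authors with StringTie and used as deposited, with 0 columns of other samples. Peaks were called by the authors in each replicate with MACS2 against its mRNA library at a *q* of 0.01, and the deposited fold enrichment, a ratio of immunoprecipitated to input signal, was used to set the m6A level. The deposited −log10 *q* served a stricter alternative, and the score was not used. The deposited −log10 *P* was not used.

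Polysome to mRNA ratios were computed per replicate without a pseudocount. Overlaps needed 1 bp on either strand. Python 3.11.15, numpy 2.4.6, pandas 2.3.3 and matplotlib 3.10.9 were used, and the ranking and overlap steps were tested on simulated data. Since the ratio chose the members, no test was run, and precision is given by the spread between 2 replicates, which were no copies of each other, since 30845 (mRNA) and 30298 (polysome) of 45578 entries differed. Low FPKM of short entries were searched for steps of whole reads, and 37.25 to 72% of 400 values per library lay on steps within 0.05, so counts were not recovered and no counting interval is given.

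The members and features were chosen with earlier results of these data known. Named genes were the 10 lowest members, the 3 inside and 3 outside the limit, those listed at 0 in a polysome library, the 5 with the highest m6A level, the 3 longest and 3 shortest (of 7 tied at 72 bp, those among the 10 lowest were named), the 5 with most bases shared with an ENSRNA entry or a gene, ties by rank, and those within 100000 bp of another member. Others were named after their values were seen, where a count of 5 or fewer or a described pair required it. The table of gene names used is of assembly NAM-5.0 and matched 0 identifiers, so product classes, leaf markers and sequences were not used. Alternatives covered the replicate, the joining of replicates, the FPKM range, a pseudocount, the scaling, the size of the list, the peak and overlap rules and, added after seeing the data, genes over 100 bp only.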

Additional observations from a re-analysis of the deposited data

How the results depend on the processing

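No paired analysis was possible because the results come from no test, and the ratio itself was already formed within each replicate number. Ranked by a single replicate, the list had a limit of 0.196 to 0.212 and a median of 0.111 to 0.137, and 18 to 32 genes held a shared peak, the 18 with replicate 2 alone. The mean of both replicates gave a limit of 0.235 and a median of 0.160. An FPKM range of 5 to 100 shared 42 genes with the list, with a limit of 0.161, a median ratio of 0.0705, a median span of 78 bp, 13 genes with a peak and 22 with an ENSRNA entry, and 66 were of at most 100 bp. A range of 20 to 50 shared 33 genes, with a limit of 0.374, a median of 0.298, a span of 3461.5 bp and 4 genes with an ENSRNA entry, and 11 were of at most 100 bp. Adding 1 FPKM gave a limit of 0.304 and a median of 0.240. Without ENSRNA entries and rescaled to an equal sum, the limit was 0.162 and the median 0.115, as the median of all candidates moved by −0.65 on the log2 scale, from 1.18 to 0.756.

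The lowest 50 had a limit of 0.181, a median of 0.0585, a span of 87 bp, 50 genes shared with the list, 16% with a peak and 26% with an ENSRNA entry. The lowest 200 had a limit of 0.327, a median of 0.260, a span of 3663 bp and 7% with an ENSRNA entry. With genes over 100 bp only, chosen after seeing the data, the limit was 0.288, the median 0.240, the span 4783.5 bp, 1 gene overlapped an ENSRNA entry and 40% held a shared peak. By construction these changes follow from the genes admitted. Overlap with another gene was 2 on the same strand and 17 with 500 bp added to each side. With the list fixed, the other rules for peaks, and those for ENSRNA entries, stayed within 1.5 times the counts given. The spread rests on 2 replicates and FPKM hide the depth, so values under 1 FPKM, as in most short members, are the least precise.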

Other observations

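Of the 35 candidates of at most 100 bp, 5 were not among the 100 lowest, and their higher ratios were 0.302 in *Zm00001d019604*, 0.344 in *Zm00001d018165*, 0.401 in *Zm00001d029952*, 0.859 in *Zm00001d027252* and 3.56 in *Zm00001d050688*. The last, 73 bp on chromosome 4, had 23.9 and 13.4 FPKM in mRNA and 51.4 and 47.7 FPKM in polysome RNA, so that its polysome values lay above both mRNA values. In 4 of the 5, *Zm00001d019604* being the exception, the mRNA abundance was higher in replicate 1, though in *Zm00001d018165* only by 49.8 against 49.5 FPKM. In the 30 short genes of the list it was higher in replicate 2. The mRNA values were denominators of the ratio that chose the list, so this contrast is given only as a description. Among short genes above 50 FPKM, 27 of 41 had both ratios below 0.1 and 0 had a higher ratio above 1.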
